A study of Homo sapiens with 18 samples.

Results

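The 10 genes described here encode nuclear factors that recognise, deliver or degrade RNA: ZCCHC8, RBM7, ZFC3H1, PABPN1, EXOSC3, EXOSC10, DIS3, SRRT, NCBP1 and NCBP2. They were chosen by name from the 39859 gene symbols of the count tables, and all 10 were among the 13370 genes that passed the filter on low counts. Their transcript 3′ ends were counted in RKO-iCas9 cells, a human colon carcinoma line in which doxycycline switches on Cas9. Every group carried this inducible Cas9 and received 100 ng/mL doxycycline for 5 days, and the guide RNA was either sgERH, which directs Cas9 to the ERH gene, or the control sgAAVS1, which directs it to a safe-harbour locus. Cells of each guide were then left non-treated (NT) or were given 25 ng/mL IFNγ or 10 ng/mL IL-1β for 4 h. Of 18 libraries, 3 that the study set aside on principal components were left out. The 15 compared were 2 NT, 3 IFNγ and 2 IL-1β libraries of sgAAVS1, and 3, 2 and 3 of sgERH. The methods describe the Cas9 lines as derived from single cells, and the guide was expressed in a population whose edited alleles were not counted here.

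The nuclear exosome is a barrel of inactive core subunits and cap proteins, to which the nucleases DIS3 and EXOSC10 are bound. It does not choose its substrates alone. In the nuclear exosome targeting (NEXT) complex, ZCCHC8 and the RNA-binding protein RBM7 join the helicase MTREX and deliver short, unprocessed RNA such as promoter upstream transcripts and enhancer RNA. In the poly(A) tail exosome targeting (PAXT) connection, ZFC3H1 links MTREX to the nuclear poly(A)-binding protein PABPN1 and delivers longer, polyadenylated RNA. The cap-binding complex of NCBP1 and NCBP2 sits on the 5′ cap of new transcripts, and SRRT (also called ARS2) connects it to these decay routes and to RNA processing and export.

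Total counts were 4987127 to 5986338 in the 15 libraries, with a median of 5242702. ERH itself lay between 537 and 643 CPM (read counts scaled to library size) in the 7 sgAAVS1 libraries and between 253 and 340.0 in the 8 sgERH libraries, a log2 difference of -1.02 ± 0.07 (SE) averaged over treatments. A 3′ end count does not read the edited sequence, so this level measures neither the edit nor the reading frame. JAK2, the IFNγ receptor kinase that the study follows, differed by -0.54 ± 0.17 on the same scale in NT and passed (edgeR adjusted p 0.021). It differed by -0.03 with IFNγ, 0.24 with IL-1β and -0.11 ± 0.10 on average, none of which passed. Of its reads, 13.5% mapped to several places. The paper also reports lower JAK2 mRNA in 3′ end counts of cells without cytokine, the same direction as in NT here. It reports a larger fall of JAK2 mRNA by RT-qPCR and a near loss of JAK2 protein, neither of which was measured here. After fractionation it reports JAK2 mRNA lower in the cytoplasm and higher in the nucleus. Counts from whole cells do not separate these compartments. Cell type markers are given in unscaled CPM, by library totals alone, unlike the ERH values. Among epithelial markers KRT8 was at 20.6 to 31.1 and KRT18 at 54.9 to 105 CPM, while KRT19 was at 0 in all 15 libraries and CDH1 in 14. Epithelial markers summed to 114 to 137 CPM with sgAAVS1, and with sgERH to 94.6 to 115 CPM, and their part in the results was not tested. With the scaling used for ERH, the sgAAVS1 sums would be higher and the sgERH sums lower. Fibroblast and endothelial markers summed to at most 0.572 CPM in any library, and the leukocyte list, nearly all of it CD68, to 390 to 504 CPM. Within the sgERH arm, sgERH_IL-1β replicate 2 held the lowest or highest value for 7 of the 10 genes. Because these are bulk samples, fewer cells of a kind and less RNA per cell cannot be told apart. The labels call the replicates biological but do not say whether each was its own culture. The p-values therefore cover only differences among these libraries, part of which may be technical.

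Most of the genes of the exosome and the cap were lower in sgERH cells, by less than 2-fold except for EXOSC3 under IL-1β. At an edgeR adjusted p of at most 0.05, which is what "fell" and "rose" mean below, 6 of the 10 genes changed in non-treated cells, where 26.1% of all tested genes did. EXOSC3, EXOSC10, SRRT, NCBP1 and PABPN1 fell, as did 13.7% of all genes, and NCBP2 rose, as did 12.4%. Under IFNγ 4 genes fell and none rose, where 25% of all genes changed and 12.6% fell. Under IL-1β 5 genes fell and none rose, where 26.5% of all genes changed and 13.1% fell. On the average of the 3 treatments 6 genes fell and NCBP2 rose, where 48.7% of all genes changed, 23.2% of all falling and 25.5% rising. The median log2 difference of the 10 genes on that average was -0.41, beside 0.04 over all genes. When the additional rule of a 2-fold change was applied, EXOSC3 under IL-1β was the only gene left in the 4 comparisons of guides. Both rules were passed by 8.24% of all genes in NT, 7.61% under IFNγ, 8.48% under IL-1β and 8.89% on average. The paper, which used DESeq2 and its own set of genes, reports a smaller share at these thresholds in non-treated cells. Values of the 4 genes EXOSC3, EXOSC10, NCBP1 and PABPN1 in all 8 sgERH libraries lay below those in all 7 sgAAVS1 libraries, as they did for 9.56% of all genes. No gene of the 10 lay higher without overlap (8.1% of all genes). Where 2 single groups are said below to separate, the share of all genes that did so was not computed. With 2 or 3 libraries a group, such separation is a description and not a test.

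These counts depend on the choice of libraries and scaling. With all 18 libraries, fewer genes passed across the whole table. Among them was the library labelled sgAAVS1_NT replicate 1, whose ERH level of 52.7 unscaled CPM was below that of every sgERH library compared. The number of the 10 genes that changed was 2 in non-treated cells (6.74% of all genes), 1 under IFNγ (3.95%), 1 under IL-1β (3.98%) and 3 on average (20.8%), the last being NCBP1, PABPN1 and SRRT. NCBP1 passed in each of these 4 comparisons. SRRT moved to -1.41 on the log2 scale in NT and to -0.26 with IFNγ, PABPN1 to -0.25 and -0.83, and EXOSC10 to -0.48 in NT. Scaling by library totals alone moved the median log2 difference of all genes on the average from 0.04 to 0.20 and the share of downward changes among all genes that changed from 47.6% to 27.4%, so each difference below is relative to the trimmed mean of M-values (TMM) scaling. The direction of all 22 results of the 10 genes that passed was kept in every alternative, including that one.

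**Figure D1:**
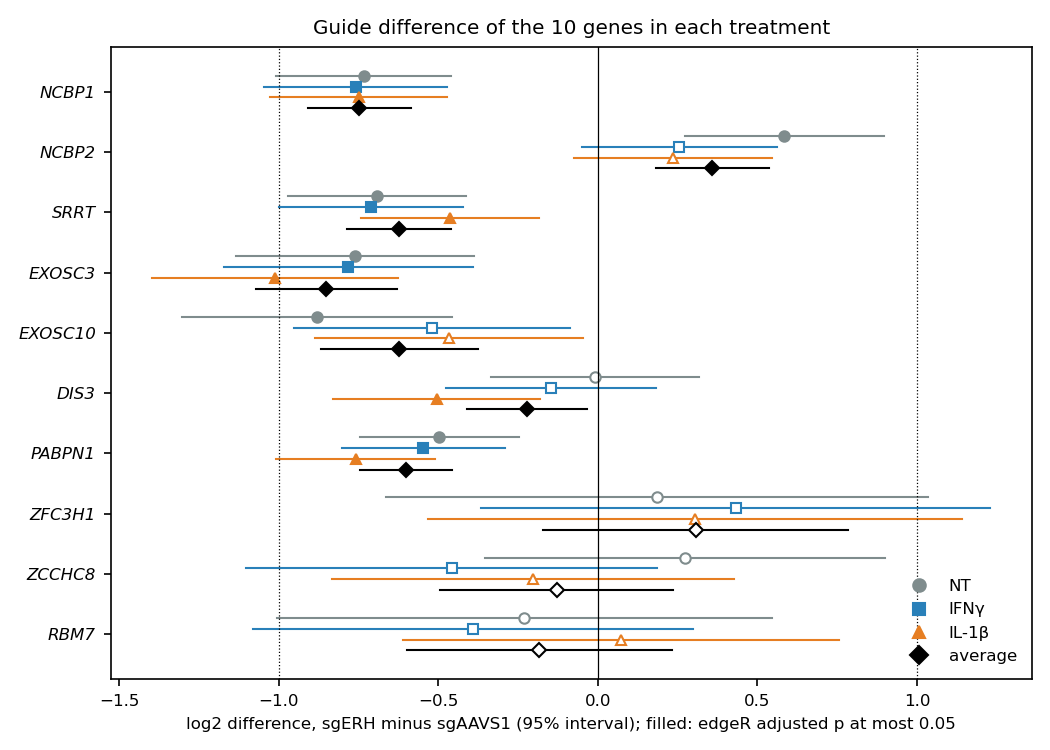
Log2 difference between sgERH and sgAAVS1 for the 10 genes (horizontal axis) in NT, IFNγ and IL-1β and on average, with 95% intervals; filled symbols passed an edgeR adjusted p of 0.05 and dotted lines mark a 2-fold change. NCBP1, SRRT, EXOSC3 and PABPN1 are filled and left of 0 in every treatment, while NCBP2 lies right of 0.

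NCBP1, the large subunit that stabilises the cap-binding complex, fell by about the same amount in each treatment. Its gene, ENSG00000136937.13, lies on the + strand of GRCh38 chromosome 9 from 97633668 to 97673748 and has 23 exons in its canonical transcript. In non-treated cells it stood at 71.6 and 70.4 CPM in sgAAVS1 and at 46.1, 45.6 and 36.4 CPM in sgERH. With IFNγ the sgAAVS1 libraries gave 62.7, 66.3 and 67.0 CPM and the sgERH libraries 38.7 and 38.5 CPM. With IL-1β they gave 68.2 and 65.4 CPM against 35.4, 44.4 and 39.5 CPM. Every sgERH value was below every sgAAVS1 value. Log2 differences were -0.73 ± 0.13 (SE) in non-treated cells, -0.76 ± 0.14 with IFNγ and -0.75 ± 0.14 with IL-1β, with edgeR adjusted p of 1.66e-04, 1.96e-04 and 1.52e-04. The guide difference in the response to either cytokine did not pass (adjusted p of 0.99 and 0.98 by edgeR), and its 95% interval reached from -0.42 to 0.37 for IFNγ and from -0.41 to 0.38 for IL-1β.

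NCBP2, the small subunit that holds the cap itself, went the other way. Its gene, ENSG00000114503.11, lies on the - strand of chromosome 3 from 196935402 to 196942594, with 4 canonical exons. Non-treated cells had 80.4 and 80.3 CPM in sgAAVS1 and 116, 144 and 102 CPM in sgERH. With IFNγ it was at 65.5, 97.4 and 94.4 CPM in sgAAVS1 and at 99.7 and 105 CPM in sgERH. With IL-1β it was at 88.8 and 83.4 CPM in sgAAVS1 and at 92.9, 102 and 110 CPM in sgERH. Within each treatment every sgERH library was above every sgAAVS1 library, although the values overlapped between treatments. The share of all genes that separated in this way was not computed. NCBP2 rose in non-treated cells (log2 difference 0.58 ± 0.15, edgeR adjusted p 0.0051) and on average (0.36 ± 0.09, edgeR adjusted p 0.0012), but the differences of 0.26 ± 0.15 with IFNγ and 0.24 ± 0.15 with IL-1β did not pass. With library totals alone the IFNγ difference was 0.40 and passed (edgeR adjusted p 0.045), and without sgAAVS1_IFNγ replicate 1 it was 0.09. The rise in non-treated cells had an edgeR adjusted p of 0.050 without sgAAVS1_NT replicate 2 and 0.056 without replicate 3. NCBP2AS2, which starts next to NCBP2 on the opposite strand, differed by 0.04 ± 0.08 on average and did not pass. NCBP2-AS1, which overlaps NCBP2 on that strand, was not among the tested genes, and the handling of strand in counting is not given in the sources used here.

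The proportion of the 2 cap-binding messages was therefore compared within each library, where scaling cancels. This measure was chosen after the values were seen. Reads of NCBP1 divided by reads of NCBP2 came to 0.890 and 0.876 in sgAAVS1_NT, 0.959, 0.680 and 0.709 in sgAAVS1_IFNγ, and 0.768 and 0.784 in sgAAVS1_IL-1β. The sgERH libraries gave 0.397, 0.317 and 0.358 in NT, 0.388 and 0.366 with IFNγ, and 0.381, 0.437 and 0.359 with IL-1β. The guides did not overlap, since the highest sgERH ratio of 0.437 was below the lowest sgAAVS1 ratio of 0.680. The mean log2 difference over the 3 treatments was -1.11, a ratio 2.16-fold lower in sgERH. It restates the opposite directions of the 2 genes given above and is a description, with no test. By treatment the log2 difference was -1.31 in NT, -1.04 with IFNγ and -0.99 with IL-1β.

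**Figure D2:**
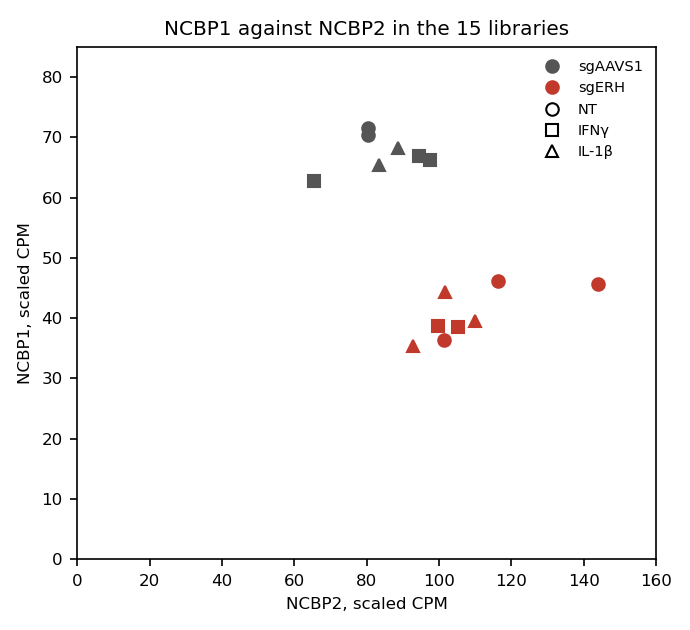
NCBP1 (vertical) against NCBP2 (horizontal) in scaled CPM, 1 point for each of the 15 libraries, coloured by guide and shaped by treatment. The 8 sgERH libraries form a group at 35.4 to 46.1 CPM of NCBP1, below the 62.7 to 71.6 CPM of the 7 sgAAVS1 libraries and mostly to their right.

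SRRT, the bridge between the cap and the decay routes, fell in all 3 treatments. The gene, ENSG00000087087.20, lies on the + strand of chromosome 7 from 100875103 to 100888664 and has 20 canonical exons. It was counted at 291 and 316 CPM in sgAAVS1_NT against 170, 185 and 208 CPM in sgERH_NT. With IFNγ it was at 264, 278 and 278 CPM in sgAAVS1 against 175 and 159 CPM in sgERH. With IL-1β it was at 285 and 246 CPM in sgAAVS1 against 163, 247 and 169 CPM in sgERH. The guides separated in NT and IFNγ but not in IL-1β, where sgERH replicate 2 reached the lower sgAAVS1 library. SRRT differed on the log2 scale by -0.69 ± 0.14 in NT (edgeR adjusted p 4.09e-04), -0.71 ± 0.14 with IFNγ (4.73e-04) and -0.46 ± 0.14 with IL-1β (0.013). The IL-1β result no longer passed without sgAAVS1_IL-1β replicate 1 (edgeR adjusted p 0.18), without sgERH_IL-1β replicate 1 (0.070), with library totals alone (0.067) or in a fit of the compared groups alone (0.14), and it was -0.68 without sgERH_IL-1β replicate 2.

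**Figure D3:**
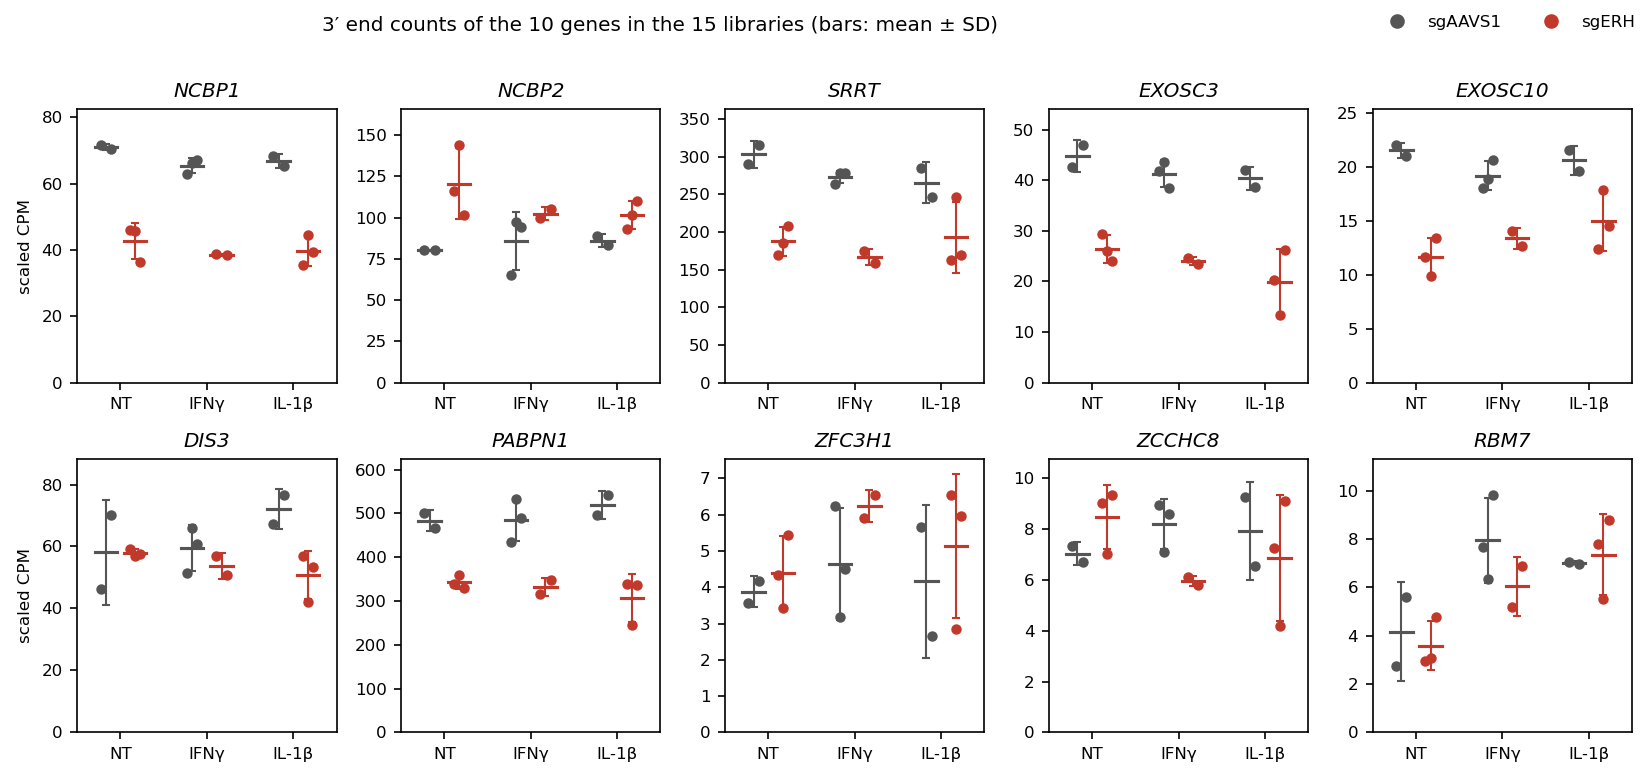
Scaled CPM of the 10 genes (vertical axis from 0, 1 panel a gene) in NT, IFNγ and IL-1β, 1 point a library, with the mean and SD of each guide. The red sgERH points lie below the grey sgAAVS1 points for NCBP1, EXOSC3, EXOSC10 and PABPN1, and overlap them for ZFC3H1 and RBM7.

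EXOSC3, an RNA-binding cap protein of the exosome, showed the greatest average fall of the 10 genes. It is ENSG00000107371.14, on the - strand of chromosome 9 from 37759234 to 37832117. In non-treated cells it was at 42.6 and 47.0 CPM in sgAAVS1 and at 29.4, 25.95 and 24.0 CPM in sgERH. With IFNγ it was at 41.8, 43.7 and 38.5 CPM in sgAAVS1 and at 24.6 and 23.4 CPM in sgERH. With IL-1β it was at 42.0 and 38.7 CPM in sgAAVS1 and at 20.3, 13.3 and 26.1 CPM in sgERH. No sgERH library reached a sgAAVS1 library, and sgERH_IL-1β replicate 2 was the lowest of all. EXOSC3 differed by -0.76 ± 0.18 in NT, -0.78 ± 0.19 with IFNγ and -1.01 ± 0.19 with IL-1β on the log2 scale, with edgeR adjusted p of 0.0025, 0.0032 and 2.04e-04. On average it was -0.85 ± 0.11.

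The passage of EXOSC3 over the 2-fold line under IL-1β rested on single libraries. The log2 difference was -0.80 without sgERH_IL-1β replicate 2, -0.96 without sgAAVS1_IL-1β replicate 1 and -0.87 with library totals alone, each still at an edgeR adjusted p under the threshold. With all 18 libraries EXOSC3 passed in no comparison of guides. Its log2 difference was then -0.26 in NT (edgeR adjusted p 0.80), -1.20 with IFNγ (0.26), -1.05 with IL-1β (0.33) and -0.83 on average (0.071). The IFNγ value includes sgERH_IFNγ replicate 2, at 6.29 unscaled CPM, below the 13.6 to 30.4 of the sgERH libraries compared. The NT value includes sgAAVS1_NT replicate 1, at 3.94 unscaled CPM, below the 36.5 to 43.3 of the sgAAVS1 libraries compared. TRMT10B covers the 3′ end of EXOSC3 on the opposite strand and was higher on average (log2 difference 0.43 ± 0.13, edgeR adjusted p 0.0080). A readthrough model, ENSG00000255872, covers the same end on the strand of EXOSC3, so reads shared with it are uncertain.

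EXOSC10, the distributive nuclear exonuclease of the exosome, was lower in every sgERH library than in any sgAAVS1 library. Its gene, ENSG00000171824.14, lies on the - strand of chromosome 1 from 11066618 to 11099869, with 25 canonical exons. Non-treated cells gave 22.0 and 21.0 CPM in sgAAVS1 and 11.7, 9.91 and 13.4 CPM in sgERH. Cells with IFNγ gave 18.1, 18.9 and 20.7 CPM in sgAAVS1 and 14.1 and 12.7 CPM in sgERH. Cells with IL-1β gave 21.6 and 19.7 CPM in sgAAVS1 and 12.4, 17.9 and 14.6 CPM in sgERH. The gene fell in NT (log2 difference -0.88 ± 0.21, edgeR adjusted p 0.0021) and on average (-0.62 ± 0.12). The differences of -0.52 ± 0.21 with IFNγ and -0.47 ± 0.20 with IL-1β missed the threshold (edgeR adjusted p 0.072 and 0.094). Without sgERH_IL-1β replicate 2 both passed, at 0.036 and 0.029. The tests of a difference between treatments gave edgeR adjusted p of 0.92 for IFNγ and 0.59 for IL-1β, so a larger effect in NT was not shown.

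DIS3, the processive catalytic subunit, was lower by the test under IL-1β and, narrowly, on average. It is ENSG00000083520.15, on the - strand of chromosome 13 from 72752169 to 72782096, with 21 canonical exons. In NT it was at 46.2 and 70.2 CPM in sgAAVS1 and at 59.3, 57.0 and 57.6 CPM in sgERH. With IFNγ it was at 51.5, 66.1 and 60.8 CPM against 56.8 and 50.7 CPM. With IL-1β it was at 67.4 and 76.7 CPM against 56.8, 41.9 and 53.3 CPM. The guides overlapped in NT and IFNγ and separated in IL-1β. The log2 difference was -0.01 ± 0.16 in NT, with a 95% interval from -0.34 to 0.32, -0.15 ± 0.16 with IFNγ and -0.51 ± 0.16 with IL-1β, where the gene fell (edgeR adjusted p 0.018). That call was lost without sgAAVS1_IL-1β replicate 2 (0.19), with library totals alone (0.097) and with the compared groups alone (0.078). The guide difference in the IL-1β response was -0.50 ± 0.22, at an unadjusted p of 0.036 and an edgeR adjusted p of 0.42. BORA overlaps the 3′ end of DIS3 on the opposite strand and differed by -0.67 ± 0.32 with IL-1β without passing.

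The average difference of DIS3, -0.22 ± 0.09 on the log2 scale, passed narrowly (edgeR adjusted p 0.048). It did not pass in DESeq2 (adjusted p 0.055) or with library totals alone, where it was -0.06. Leaving out any of 9 libraries also lost it. These were all 3 sgERH_NT libraries, both sgERH_IFNγ libraries, sgAAVS1_NT replicate 3, sgAAVS1_IFNγ replicates 2 and 3, and sgAAVS1_IL-1β replicate 2.

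PABPN1, the nuclear poly(A)-binding protein of PAXT that also governs tail length, fell in all 3 treatments. It is ENSG00000100836.11, on the + strand of chromosome 14 from 23321457 to 23326163, with 7 canonical exons. In NT it was at 500.1 and 467 CPM in sgAAVS1 and at 338, 360.3 and 329 CPM in sgERH. With IFNγ it was at 434, 532 and 489 CPM in sgAAVS1 and at 317 and 347 CPM in sgERH. With IL-1β it was at 496 and 542 CPM in sgAAVS1 and at 339, 244 and 337 CPM in sgERH. The guides did not overlap. On the log2 scale PABPN1 differed by -0.50 ± 0.12 in NT (edgeR adjusted p 0.0031), -0.55 ± 0.12 with IFNγ (0.0017) and -0.76 ± 0.12 with IL-1β (3.37e-05), the last being -0.62 without sgERH_IL-1β replicate 2. The call in NT was lost with library totals alone (edgeR adjusted p 0.057) and without sgAAVS1_NT replicate 2 (0.053), and that with IFNγ without sgERH_IFNγ replicate 1 (0.054). The readthrough gene BCL2L2-PABPN1 covers the same 3′ end and is counted on its own row, so how reads were divided between them is uncertain. It fell as well, by 0.55 on the log2 scale on average.

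ZFC3H1, the zinc-finger protein that joins MTREX to PABPN1, had few reads, 13 to 37 a library. It lies on the - strand of chromosome 12 from 71609599 to 71667725 (ENSG00000133858.17). The 7 sgAAVS1 libraries ran from 2.67 to 6.23 CPM with a median of 4.17, and the 8 sgERH libraries from 2.86 to 6.55 CPM with a median of 5.68. The guides overlapped throughout. The log2 difference of 0.31 on average had a 95% interval from -0.17 to 0.79, so a change was not detectable at this depth.

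The 2 NEXT subunits were likewise thinly counted. ZCCHC8, the scaffold of NEXT (ENSG00000033030.16, - strand of chromosome 12 from 122471600 to 122500932), had 22 to 55 reads a library. Its level ran from 6.56 to 9.28 CPM with a median of 7.35 in sgAAVS1, and from 4.19 to 9.35 CPM with a median of 7.14 in sgERH. RBM7, the subunit that binds pyrimidine-rich RNA (ENSG00000076053.12, + strand of chromosome 11 from 114400030 to 114414203), had 13 to 50 reads, of which 11.4% mapped to several places. Its level ran from 2.73 to 9.83 CPM with a median of 6.97 in sgAAVS1, and from 2.96 to 8.77 CPM with a median of 5.35 in sgERH. Both genes overlapped between guides over all treatments. Within IFNγ, ZCCHC8 was at 8.93, 7.09 and 8.60 CPM in sgAAVS1 and at 6.10 and 5.81 CPM in sgERH. These values did not overlap, but the difference did not pass (edgeR adjusted p 0.30). The average log2 difference was -0.13 for ZCCHC8, with a 95% interval from -0.49 to 0.24, and -0.18 for RBM7, with an interval from -0.60 to 0.23. A readthrough model, ENSG00000255663, covers the 3′ end of RBM7 on the same strand.

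None of the 10 genes passed the test for a cytokine response in either guide. By edgeR, 0 of 10 passed with IFNγ in sgAAVS1 (0.98% of all genes did), 0 with IFNγ in sgERH (0.0299%), 0 with IL-1β in sgAAVS1 (0.92%) and 0 with IL-1β in sgERH (0.957%), and DESeq2 also gave 0. The numbers with an unadjusted p under 0.05 were 1, 1, 0 and 2. RBM7 came nearest. In sgERH it was at 2.96, 3.06 and 4.76 CPM in NT and at 7.78, 5.53 and 8.77 CPM with IL-1β, with no overlap. The difference was 1.03 on the log2 scale, with a 95% interval from 0.38 to 1.68 and an edgeR adjusted p of 0.12. In sgAAVS1 the same comparison gave 0.73, from -0.07 to 1.53. IFNγ gave log2 differences of 0.90 in sgAAVS1 and 0.74 in sgERH for RBM7, at edgeR adjusted p of 0.39 and 0.75. EXOSC3 with IL-1β in sgERH differed by -0.40 (edgeR adjusted p 0.29), and it passed without sgERH_IL-1β replicate 3, at -0.64 and 0.045.

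No difference between guides in a cytokine response was detected for these genes. By edgeR, 0 of 10 passed the test of a guide difference in the IFNγ response (0.247% of all genes did) and 0 in the IL-1β response (0%), with 0 and 1 genes at an unadjusted p under 0.05, and DESeq2 gave 0 for both. The estimates for the IFNγ response ran from -0.73 for ZCCHC8 to 0.36 for EXOSC10, and those for the IL-1β response from -0.50 for DIS3 to 0.41 for EXOSC10. The standard errors for the 2 genes with the widest estimates, ZFC3H1 and RBM7, were above 0.50, so only large differences could have been detected for them.

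The 26 other genes of nuclear RNA decay and cap binding were listed by role with earlier results of these data known. On the average of treatments 15 of 26 changed, 12 downward and 3 upward, beside the 48.7% of all genes, and their median log2 difference was -0.26 against 0.04 over all genes. By treatment, 10 fell and 1 rose in NT, 6 fell and 1 rose with IFNγ, and 6 fell and 1 rose with IL-1β. That is 42.3%, 26.9% and 26.9% of the list, beside 26.1%, 25% and 26.5% of all genes. MTREX, the helicase shared by NEXT and PAXT, fell by 0.48 on the log2 scale. In 6 of the 26 genes all sgERH values lay below all sgAAVS1 values, as for 9.56% of all genes. They were MTREX, EXOSC8, EXOSC9, ZC3H18, PHAX and ZC3H4. None of the list lay higher without overlap (8.1% of all genes). Of the 8 other core subunits of the exosome 6 fell, where 23.2% of all genes did. They were EXOSC9 (log2 difference -0.70 ± 0.06), EXOSC8 (-0.72 ± 0.08), EXOSC2 (-0.47 ± 0.08), EXOSC7 (-0.45 ± 0.08), EXOSC1 (-0.44 ± 0.11) and EXOSC6 (-0.30 ± 0.07). EXOSC4 (0.08 ± 0.07) and EXOSC5 (-0.17 ± 0.08) did not pass on average, although EXOSC5 fell in NT (-0.41 ± 0.13, edgeR adjusted p 0.024). The cofactors C1D and MPHOSPH6 and the cytoplasmic nuclease DIS3L did not pass either, with 66.0% of C1D reads mapping to several places.

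Around the cap, PHAX, the export adaptor of small nuclear RNA, fell by 0.38 on the log2 scale, and ZC3H18, which ties the cap-binding complex to NEXT, fell by 0.29. NCBP3, an alternative cap-complex subunit, differed by -0.26 without passing. Of the PAXT-associated zinc-finger and RNA-recognition proteins, RBM26 fell by 0.34 on average while its paralog RBM27 rose by 0.37. By treatment RBM27 passed only in NT (0.88, edgeR adjusted p 0.0093), and it differed by 0.23 with IFNγ and -0.01 with IL-1β. RBM26 passed only with IL-1β (-0.49, edgeR adjusted p 0.0088), with -0.27 in NT and with IFNγ. The restrictor subunits WDR82 and ZC3H4, which end unproductive transcription, fell by 0.39 and 0.31. ZCCHC7, of the nucleolar TRAMP complex, rose by 0.23, and TENT4A, a poly(A) polymerase, fell with IL-1β (log2 difference -0.58 ± 0.19, edgeR adjusted p 0.024). With IL-1β TENT4A was at 41.6 and 36.3 CPM in sgAAVS1 and at 30.8, 16.8 and 30.4 CPM in sgERH, lowest in replicate 2. ZC3H4, ZCCHC7 and the list genes that passed in no comparison were named after their values were seen. DXO, a decapping enzyme, rose by 0.90 on average and passed the 2-fold rule with IFNγ (1.02) and IL-1β (1.12), but 100% of its reads mapped to several places. In the cytokine comparisons 1 gene of the list passed, ZC3H3, which differed by 0.86 on the log2 scale with IL-1β in sgERH (edgeR adjusted p 0.041). In that comparison 0.957% of all genes passed. ZC3H3 was at 10.6, 11.2 and 8.50 CPM in sgERH_NT and at 17.3, 24.2 and 13.7 CPM in sgERH_IL-1β, highest in replicate 2. Leaving out single libraries was not examined for ZC3H3 or TENT4A.

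The genes whose levels followed each of the 10 most closely were sought among 8739 genes with a mean of at least 10 CPM, by Pearson's r of log2 CPM over the 15 libraries. The libraries share their guide, so a gene that differs between guides resembles every other such gene, and no p is given. NCBP1 ran nearest to UQCRH (r = 0.99) and most opposite to DYRK3 (-0.98). PABPN1 ran nearest to ARPC1B (0.99) and opposite to HIST2H2AA3 (-0.98), and EXOSC3 to PSMB4 (0.99) and ZBTB43 (-0.97). SRRT was closest to SHARPIN (0.98) and farthest from ALKBH2 (-0.96), and EXOSC10 to YBX1 (0.96) and SLC25A38 (-0.95). NCBP2 had DSTN (0.94) and EFHD2 (-0.93). The genes with weaker guide differences had lower extremes. DIS3 had GOLPH3 (0.88) and FHL3 (-0.83), ZFC3H1 had MRPL10 (0.89) and MTATP6P1 (-0.83), ZCCHC8 had SIAH2 (0.82) and EIF6 (-0.85), and RBM7 had RNF114 (0.82) and IFI27L1 (-0.88).

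RefSeq promoters on GRCh38.p14, 250 bases before to 50 after a start site, were matched for 9 of the 10 genes, all but NCBP1, taking the first listed start of a gene. The core of the ETS factor motif, CGGAAG or CTTCCG on the other strand, was present in 6 of the 9 (66.7%), against 19.5% of all 35116 promoters of this length. The GC box GGGCGG was in 8 of 9 (45.0% of all) and CCAAT in 5 of 9 (34.6%). GCATGCGC was in 2 of 9 (3.05%), and the E-box CACGTG (7.26%) and TATAAA (11.5%) in none of the 9. The promoters of EXOSC3, the gene with the greatest average fall, and of NCBP2, the gene that rose, each hold 2 matches of the ETS core, shown in capitals. They lie at chr9:37785043-37785342 and chr3:196942479-196942778, both on the - strand, and are written 5′ to 3′ along the gene.
EXOSC3: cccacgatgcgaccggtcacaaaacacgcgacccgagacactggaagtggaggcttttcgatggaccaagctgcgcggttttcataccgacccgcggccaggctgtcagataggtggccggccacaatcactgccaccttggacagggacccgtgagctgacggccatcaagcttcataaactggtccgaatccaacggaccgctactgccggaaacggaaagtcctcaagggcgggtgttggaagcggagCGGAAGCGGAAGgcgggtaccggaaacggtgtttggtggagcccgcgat
NCBP2: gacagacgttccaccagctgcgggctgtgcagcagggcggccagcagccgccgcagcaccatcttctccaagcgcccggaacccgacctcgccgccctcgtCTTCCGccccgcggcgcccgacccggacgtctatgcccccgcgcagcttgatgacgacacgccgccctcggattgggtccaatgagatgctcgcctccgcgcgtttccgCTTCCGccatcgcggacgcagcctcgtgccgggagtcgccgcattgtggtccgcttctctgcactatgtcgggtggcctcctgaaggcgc
Genes that moved in opposite directions thus shared these letters. The core was also in SRRT, DIS3, ZFC3H1 and RBM7, of which ZFC3H1 and RBM7 did not pass between guides. It was absent from EXOSC10 and PABPN1, which fell, and from ZCCHC8. The printed window of NCBP2 also covers the start of NCBP2AS2 on the opposite strand, at 196942674. A match describes the sequence and is not a measured binding site.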

How the data were processed

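QuantSeq 3′ end libraries of RKO-iCas9 cells were used. The authors trimmed reads (Trim Galore 0.6.2, FastQC 0.11.8), aligned them with SlamDunk against GRCh38, and counted within 3-GAmES 3′ windows from RefSeq and Ensembl, summed per symbol. The deposited values used here are these raw integer read counts for each gene and the authors' multimapping counts. Window counts record the amount of 3′ end and miss other parts of a transcript. No molecular identifiers are described, so limits of depth cover counting error only.

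Counts of the 15 libraries the study kept were tested in 1 edgeR 4.0.16 (R 4.3.3) quasi-likelihood fit of the 6 groups, with TMM scaling and filterByExpr (13370 genes), and p-values were adjusted by Benjamini-Hochberg over all genes. The biological coefficient of variation was 12.6%. The study's fold rule, 2-fold with an adjusted p of 0.05, was the second rule. The 10 comparisons were the guides within each treatment and averaged over treatments, each cytokine against NT in each guide, and the guide difference in each response. Scripts were tested on simulated counts. No pair of libraries held identical counts. Alternatives were DESeq2 1.42.0, RLE or library-total scaling, no filter, all 18 libraries, only the groups compared, a replicate block, no multimapping reads, and leaving out each library.

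The 10 genes and the list of 26 were chosen with earlier results of these data known. Named genes were the 10, ERH, JAK2, the 12 list genes of smallest average p, list genes that passed elsewhere, and the extremes of likeness, and other list genes were named after their values were seen. Gene positions are from GENCODE on GRCh38, and promoters from RefSeq.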

Additional observations from a re-analysis of the deposited data

Results flagged for a closer look

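ZCCHC8 lay above the sgAAVS1 mean of 7.03 CPM in 2 of 3 sgERH libraries without cytokine, level with it in replicate 2 (7.03 CPM), and below the sgAAVS1 mean in both sgERH libraries with IFNγ. The difference between these effects was -0.73 ± 0.44 (SE) on the log2 scale, at an edgeR adjusted p of 0.91, from 22 to 55 reads a library.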

How the results depend on the processing

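Of 22 results of the 10 genes that passed, the number lost was 0 with RLE scaling, without the filter, without multimapping reads and with a replicate block, 1 with DESeq2, 2 with only the groups compared, 4 with library totals alone and 15 with all 18 libraries. Under all 18 libraries the genes that changed numbered 2 in NT (6.74% of all genes), 1 with IFNγ (3.95%), 1 with IL-1β (3.98%) and 3 on average (20.8%). Of the list of 26, 5 changed on average instead of 15, while the share of all genes went from 48.7% to 20.8%. Under IL-1β the count was 3 with library totals (27.1% of all genes) and 3 with only the groups compared. The number past the 2-fold rule was 0 with library totals, and with all 18 libraries it was 1, SRRT in NT instead of EXOSC3. Leaving out 1 library gave 4 to 6 genes in NT, 3 to 5 with IFNγ, 4 to 6 with IL-1β, 6 to 7 on average, 0 to 1 past the 2-fold rule, 13 to 17 of the list, and 0 to 1 for IL-1β against NT in sgERH. Shares of all genes were not computed without 1 library, with a replicate block or with only the groups compared. The cause of these changes in number was not tested. The NCBP1 to NCBP2 log2 ratio difference, a measure chosen after seeing the data, was -1.14 to -1.06 without 1 library, -1.12 with all 18 and -1.11 without multimapping reads. Same-numbered libraries did not deviate together (r from -0.04 to 0.05 over 14 pairs), so no pairing by replicate number was seen. With 2 or 3 libraries a group and counting noise in most genes, this check cannot exclude a shared culture or preparation. With the replicate block the counts were 6, 4, 5 and 7 genes in NT, IFNγ, IL-1β and on average. Depth limits ZFC3H1, RBM7 and ZCCHC8, with 13 to 55 reads a library.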

Other observations

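The 3 libraries that entered no comparison held unusual levels of these genes. The library labelled sgAAVS1_NT replicate 1 lay outside the range of the 7 sgAAVS1 libraries for 9 of the 10 genes, 8 below and 1 above, in unscaled CPM. It had 3.94 CPM of EXOSC3, 204 of PABPN1, 684 of SRRT and no read of ZFC3H1, and its ERH level of 52.7 CPM was below that of every sgERH library used. This library held 3811492 counts and 9657 genes with at least 10 reads, and 26.3% of its reads mapped to several places. The 15 libraries compared held 11842 to 12694 such genes, with 20.4% to 23.2% of reads mapping to several places. Why this library stood apart was not tested. The library labelled sgERH_IFNγ replicate 2 lay outside the sgERH range for 9 of 10, 7 below and 2 above, with 6.29 CPM of EXOSC3, 162 of PABPN1 and 354 of SRRT. It held 11187 genes with at least 10 reads, and 24.0% of its reads mapped to several places. The deepest library, sgAAVS1_IL-1β replicate 3, lay outside for 5 of 10, with 296 CPM of PABPN1 and 38.4 of EXOSC3. The reads of NCBP1 divided by those of NCBP2 were 0.720 in the library labelled sgAAVS1_NT replicate 1, 0.814 in sgAAVS1_IL-1β replicate 3 and 0.307 in sgERH_IFNγ replicate 2, beside 0.680 to 0.959 in the 7 sgAAVS1 and 0.317 to 0.437 in the 8 sgERH libraries compared.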
